A study of Mus musculus with 33 samples.

Results

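Blood clotting and complement are cascades of plasma proteins that are made for the most part by hepatocytes, and 40 genes of these cascades were followed here in mouse liver. They were taken from a list of coagulation and complement factors and matched by the gene name that stands beside each Ensembl identifier in the deposited normalized table. All 40 were among the 25988 genes counted, and 39 of them were among the 10179 genes with enough reads to be tested. The exception was Masp1, which encodes a serine protease of the lectin pathway and had between 2 and 22 reads per library. Klkb1 stands for ENSMUSG00000031640, which GENCODE M21 calls Gm45753, a gene that overlaps Klkb1 there.

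Livers came from male C57BL/6J mice with a floxed G6pc gene, whose labelled age of 13 to 18 weeks is, per the study's methods, that at injection of the virus. G6pc encodes the catalytic subunit of glucose-6-phosphatase. All mice received an adeno-associated virus and then tamoxifen on 5 days, per the study's methods, and were sampled in the fed state 10 days after the last treatment. The virus carried a short hairpin RNA against ChREBP (shChREBP) or a scrambled one (shSCR). G6pc was deleted in L-G6pc-/- mice by a tamoxifen-inducible Cre under the serum albumin promoter, which restricts the deletion to hepatocytes and leaves the enzyme of other cells in place, while L-G6pc+/+ littermates had no Cre. The groups were shChREBP/L-G6pc-/- (n = 9 libraries, s25 to s33), shSCR/L-G6pc-/- (n = 8, s17 to s24), shChREBP/L-G6pc+/+ (n = 8, s9 to s16) and shSCR/L-G6pc+/+ (n = 8, s1 to s8). The study asked what reduced activity of ChREBP, a glucose-sensitive transcription factor, does to a liver that lacks G6pc. Values are CPM, the reads of a gene scaled to a common library size after TMM normalization. Calls are at a Benjamini-Hochberg adjusted p under 0.05 over all genes tested, from edgeR's two-sided quasi-likelihood test.

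Clotting starts from the contact factors or from tissue factor with factor VII, and both routes lead to thrombin, which turns fibrinogen into fibrin. Anticoagulants restrain thrombin and its activation, and plasmin dissolves the clot. Complement is started by C1, by mannose-binding lectins or by the alternative pathway, passes through C3 and ends in a pore built from C5b to C9, with inhibitors at several steps. Most of the 40 genes are textbook products of hepatocytes, and several, such as the fibrinogen genes and C3, respond to the acute phase of inflammation.

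Libraries held 1497843 to 3546852 reads (median 2141043). Mlxipl, which encodes ChREBP, averaged 386 ± 112 CPM in shChREBP/L-G6pc-/- and 574 ± 45.4 CPM in shSCR/L-G6pc-/- livers, and 366 ± 49.9 CPM in shChREBP/L-G6pc+/+ and 535 ± 57.5 CPM in shSCR/L-G6pc+/+ livers (SD, n = 9, 8, 8 and 8). G6pc itself averaged 241 ± 122 and 346 ± 192 CPM in the L-G6pc-/- groups with shChREBP and shSCR, and 158 ± 39.8 and 236 ± 86.4 CPM in the L-G6pc+/+ groups with shChREBP and shSCR, and was called in none of the comparisons. Reads come from 3′ ends, and where they lie relative to the deleted part was not tested, so they do not check the deletion. Of 10 hepatocyte markers, 9 were in the table under the symbol used and all 9 were detected in each group. On the first principal component of all tested genes (which took 14.7% of the variance), s29, s30, s32 and s33 lay between 26.8 and 35.6, and the other 5 shChREBP/L-G6pc-/- libraries between -1.47 and 7.70. Results for members that rest on these 4 libraries are given with and without them. Fold changes and calls of other named genes and of cell type markers come from all libraries. Whether those rest on these 4 was not tested. The labels do not say that each library is a different mouse, so p-values measure the spread between libraries.

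In livers without G6pc, shChREBP went with lower RNA for at least 1 factor of each role except the anticoagulants, by the fit to all libraries. Without s29, s30, s32 and s33, F7 was the 1 member that passed. The calls for fibrin formation (Fgb and Fgg) and for the classical and lectin pathways (Mbl1) also depended on single libraries, as given below. With all libraries, 11 of 39 members tested fell and 1 rose in shChREBP/L-G6pc-/- compared with shSCR/L-G6pc-/- livers. Of all tested genes 7.56% were called, 4.23% lower and 3.33% higher. Factor VII, the beta and gamma chains of fibrinogen, kininogen 1, the clot stabiliser Cpb2, vitronectin, C3, the mannose-binding lectin Mbl1, the gamma chain of C8 and the inhibitors Cfi and Serping1 fell. The beta chain of C8 rose. The log2 fold change was below 0 for 32 of 39 members, with a median of -0.24, whereas the median over all tested genes was 0.01. Of 22 coagulation members 6 fell and 0 rose (median -0.26), and of 17 complement members 5 fell and 1 rose (median -0.22). Over all genes 339 were higher and 431 lower, and with counts scaled by library size only these were 848 and 271, with 2 members higher and 5 lower. In bulk liver RNA, fewer cells of a type and less RNA per cell cannot be told apart.

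**Figure D1:**
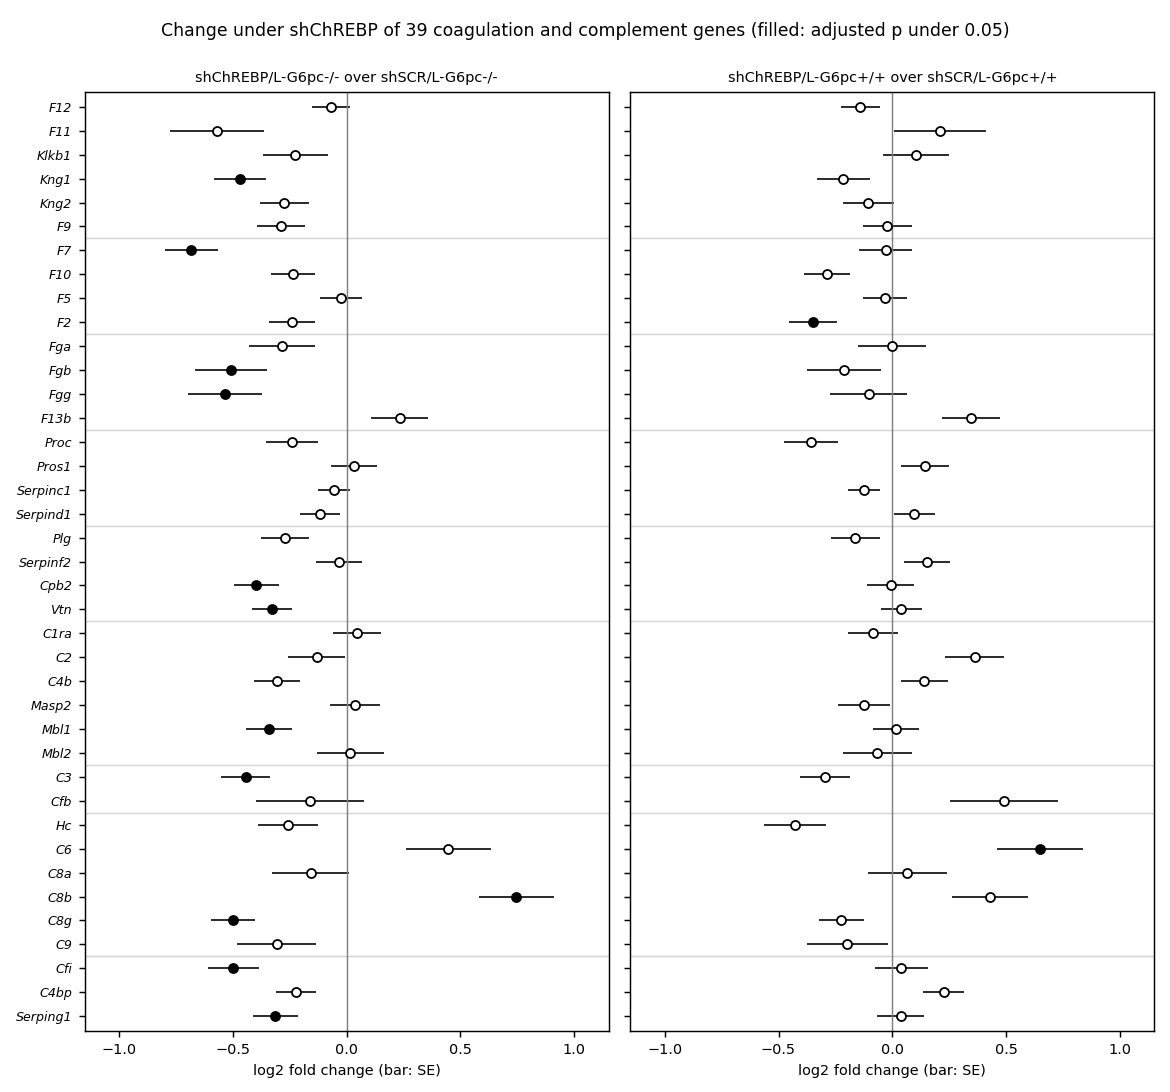
Log2 fold change under shChREBP of the 39 tested members, ordered by role (grey lines), in L-G6pc-/- livers (left) and in L-G6pc+/+ livers (right). Points are estimates, bars are standard errors and filled points passed the threshold: 12 members on the left and 2 on the right.

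F7 (chr8:13026034-13035809, GRCm38, plus strand) encodes factor VII, the protease that binds tissue factor to start the extrinsic route. Its lowest, median and highest levels were 42.7, 66.5 and 79.1 CPM in shChREBP/L-G6pc-/- and 72.9, 102 and 121 CPM in shSCR/L-G6pc-/- livers. Of 9 shChREBP/L-G6pc-/- libraries, 8 lay below every shSCR/L-G6pc-/- library, and s33 was the exception. The log2 fold change was -0.68 ± 0.11 (SE), a level 0.624 times that of shSCR/L-G6pc-/- (adjusted p = 0.00017 by edgeR). Without s29, s30, s32 and s33 it was -0.64 (adjusted p = 0.00704 by edgeR), and F7 was then the 1 member that passed. The levels in the L-G6pc+/+ groups were 77.3, 86.9 and 116 CPM with shChREBP and 72.2, 96.1 and 112 CPM with shSCR. The ranges of the 3 other groups overlapped one another.

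**Figure D2:**
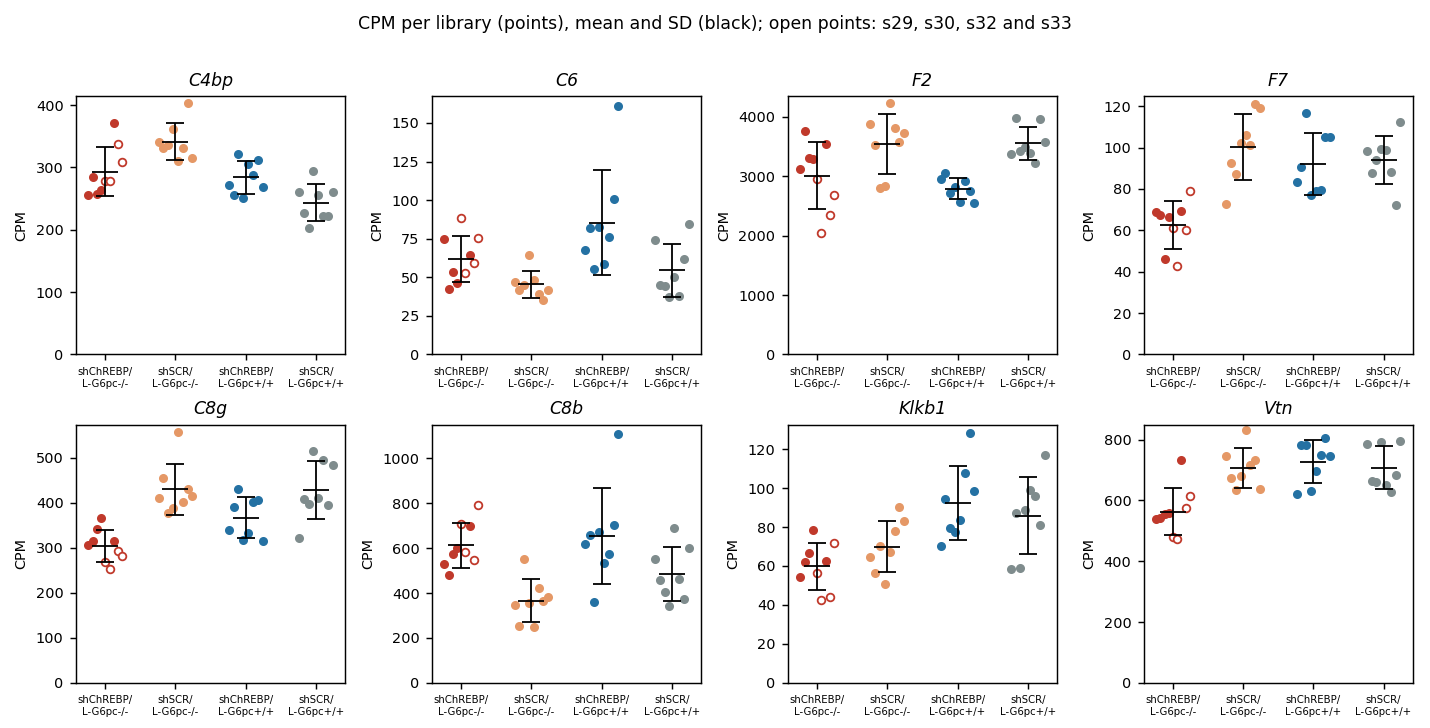
CPM of 8 members in each library, by group, with the mean and SD in black. Open points are s29, s30, s32 and s33, and the 9 F7 points of shChREBP/L-G6pc-/- lie between 42.7 and 79.1 CPM.

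The other extrinsic and common pathway genes did not pass. F10 (factor X), F5 (factor V) and F2 (prothrombin) had log2 fold changes of -0.24, -0.02 and -0.24. Among the 6 contact and intrinsic genes, Kng1, which encodes the kininogen that carries prekallikrein and yields bradykinin, fell by 0.47 on the log2 scale (adjusted p = 0.00735 by edgeR). Its lowest, median and highest levels were 267, 421 and 479 CPM in shChREBP/L-G6pc-/- and 411, 537 and 644 CPM in shSCR/L-G6pc-/- livers. All 9 shChREBP/L-G6pc-/- libraries were below the shSCR/L-G6pc-/- median, though the ranges overlapped. Without the 4 libraries that stood apart, Kng1 was at -0.37 (adjusted p = 0.167 by edgeR). Its near copy Kng2 had a log2 fold change of -0.27 and, as the pair is alike in sequence, reads may be shared between them. F11 (-0.57), F9 (-0.29), Klkb1 (-0.23) and F12 (-0.07) did not pass. F11 was read only 13 to 60 times per library.

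The 3 fibrinogen genes lie side by side on chromosome 3 of GRCm38, Fgg at 83007724-83015049, Fga at 83026076-83033627 and, on the other strand, Fgb at 83040141-83049863. Fgb ranged over 1846, 3488 and 4447.5 CPM (lowest, median and highest) in shChREBP/L-G6pc-/- and 3049, 4258 and 6049 CPM in shSCR/L-G6pc-/- livers, a log2 fold change of -0.51 ± 0.16 (SE, adjusted p = 0.0399 by edgeR). Fgg ranged over 1296, 2343 and 2889.9 CPM in shChREBP/L-G6pc-/- and 2063, 3079 and 4329 CPM in shSCR/L-G6pc-/- livers, a log2 fold change of -0.53 ± 0.16 (SE, adjusted p = 0.0371 by edgeR). For both chains the 4 libraries that stood apart held the 4 lowest values. Their Fgb levels were 1846 to 2988.5 CPM, against 3488 to 4447.5 CPM in the other 5 libraries of the group, and without them the log2 fold change of Fgb was -0.20 (adjusted p = 0.663 by edgeR) and that of Fgg -0.23 (adjusted p = 0.645 by edgeR). Fga, the alpha chain, had a log2 fold change of -0.28 that did not pass, and F13b, the carrier subunit of the fibrin-linking factor XIII, one of 0.23 that did not either.

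**Figure D3:**
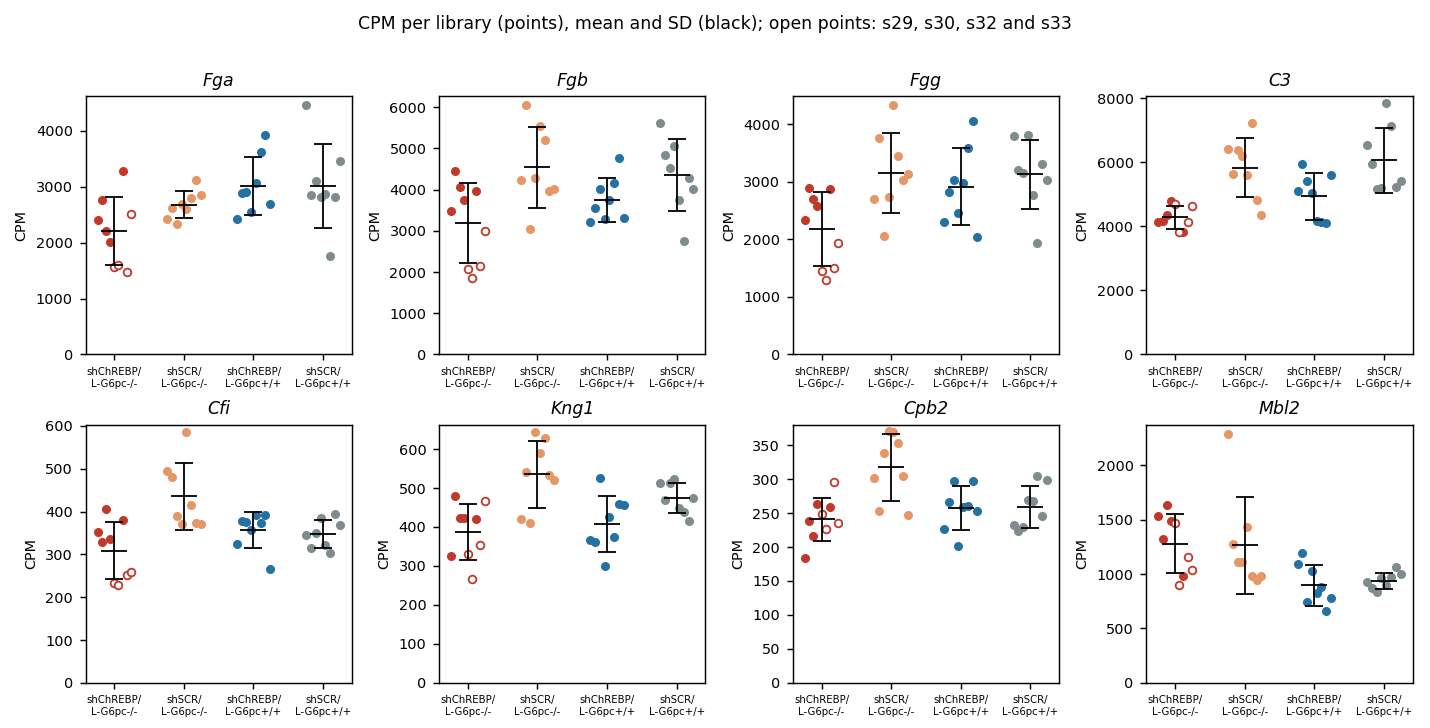
CPM of 8 further members in each library, by group, with the mean and SD in black and the libraries s29, s30, s32 and s33 as open points. In Fgb the open points lie between 1846 and 2988.5 CPM, below the other 5 libraries of shChREBP/L-G6pc-/-.

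Calls for 4 genes depended on single libraries in this comparison. Fgb no longer passed when any 1 of s18, s21, s22, s29, s30, s32 or s33 was left out (adjusted p between 0.0638 and 0.0994 by edgeR). Fgg no longer passed without s18, s21, s22, s23, s24, s29, s30, s32 or s33 (0.0503 to 0.102). Mbl1 no longer passed without s21, s22, s23, s30 or s32 (0.0534 to 0.072). Serping1 no longer passed without s1, s17, s18, s20, s21, s22, s23, s28, s29, s30, s32 or s33 (0.0509 to 0.106). The calls of F7, C8g, C8b, Cfi, C3, Kng1, Cpb2 and Vtn held in each of the 33 fits that left out 1 library. Of 11 other settings, F7 was called in 11, C8g, C8b, Cfi, C3 and Kng1 in 10, Cpb2 in 9, Fgg and Vtn in 8, Fgb and Mbl1 in 7 and Serping1 in 6.

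RefSeq promoters of GRCm38.p6, 250 bases before and 50 after a start site, were on hand for 31 of the 40 members, 8 of the 11 that fell among them. They were searched on both strands for letters known from liver promoters and for the E-box letters CACGTG. The E-box search took that exact word alone, so it cannot tell whether elements bound by ChREBP are present. The C/EBP letters TTNNGCAA were in 11 of 31 members (35.5%) and in 10.8% of all 32851 promoters. A member counted once if any promoter of it matched, whereas the shares of all promoters count each promoter by itself. The HNF4 letters TGNACTTTG were in F9 and Serpind1 (1.41% of all promoters), the HNF1 letters GTTAAT, any base and ATTAA in Hc (0.0609%), and the E-box CACGTG in 0 of 31 (7.15%). These are matches of letters and not measured sites. Each search took only the letters given, so a promoter without a match may still hold a site for that factor. Of the 8 members that fell and had a promoter, 3 held the C/EBP letters: Fgb, C3 and Cpb2. C1ra, C9, F11, F9, Fga, Klkb1, Kng2 and Serpinc1 also held them and were not called for shChREBP in L-G6pc-/- livers. Fgg and F7 fell and had no match to any of the 4 sets of letters. The promoters of Fgb, C3 and Cpb2 are shown with the match in capitals, followed by those of Fgg and F7. The positions are chr3:83049814-83050113 (minus strand), chr17:57228087-57228386 (minus), chr14:75242037-75242336 (plus), chr3:83007474-83007773 (plus) and chr8:13025784-13026083 (plus), and the matches run from base -80 to -73, -45 to -38 and 8 to 15 of the start site.
Fgb: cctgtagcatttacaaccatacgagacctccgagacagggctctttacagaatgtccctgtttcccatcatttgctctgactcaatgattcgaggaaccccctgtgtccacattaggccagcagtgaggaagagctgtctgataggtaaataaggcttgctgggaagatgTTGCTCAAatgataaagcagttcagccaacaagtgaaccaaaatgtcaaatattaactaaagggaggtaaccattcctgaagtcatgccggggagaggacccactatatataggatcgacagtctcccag
C3: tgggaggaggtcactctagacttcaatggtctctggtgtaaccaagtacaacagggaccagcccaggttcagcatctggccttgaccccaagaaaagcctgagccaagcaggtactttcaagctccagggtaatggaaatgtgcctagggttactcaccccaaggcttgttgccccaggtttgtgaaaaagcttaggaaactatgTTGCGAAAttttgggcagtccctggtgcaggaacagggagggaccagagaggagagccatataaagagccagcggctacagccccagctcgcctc
Cpb2: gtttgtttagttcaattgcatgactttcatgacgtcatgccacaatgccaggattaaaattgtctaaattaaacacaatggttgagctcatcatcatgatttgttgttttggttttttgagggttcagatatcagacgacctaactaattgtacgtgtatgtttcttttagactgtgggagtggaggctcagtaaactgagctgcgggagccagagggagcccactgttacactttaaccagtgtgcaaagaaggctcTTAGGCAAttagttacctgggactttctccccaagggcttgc
Fgg: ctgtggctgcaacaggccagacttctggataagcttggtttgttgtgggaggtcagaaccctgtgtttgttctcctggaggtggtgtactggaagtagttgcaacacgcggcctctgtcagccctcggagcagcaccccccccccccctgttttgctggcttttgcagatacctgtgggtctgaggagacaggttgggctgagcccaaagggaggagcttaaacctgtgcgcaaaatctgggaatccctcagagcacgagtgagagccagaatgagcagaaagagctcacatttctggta
F7: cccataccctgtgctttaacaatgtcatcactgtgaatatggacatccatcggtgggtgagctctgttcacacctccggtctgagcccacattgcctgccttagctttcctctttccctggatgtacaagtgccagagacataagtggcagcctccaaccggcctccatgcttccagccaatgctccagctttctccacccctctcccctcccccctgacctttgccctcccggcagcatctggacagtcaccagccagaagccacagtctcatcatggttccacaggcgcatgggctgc

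None of the 4 anticoagulants passed in L-G6pc-/- livers. Protein C (Proc), protein S (Pros1), antithrombin (Serpinc1) and heparin cofactor II (Serpind1) had log2 fold changes of -0.24, 0.03, -0.05 and -0.12. Of the 4 genes of fibrinolysis, Cpb2 fell by 0.40 (adjusted p = 0.0095 by edgeR). It encodes a carboxypeptidase that trims fibrin and so slows its breakdown, and its lowest, median and highest levels were 183, 238 and 296 CPM in shChREBP/L-G6pc-/- and 247, 321 and 371 CPM in shSCR/L-G6pc-/- livers. It was at -0.44 without the 4 libraries (adjusted p = 0.0583 by edgeR). Plasminogen (Plg, -0.27) and alpha2-antiplasmin (Serpinf2, -0.03) did not pass.

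Vtn (chr11:78499091-78502324, plus strand) encodes vitronectin, which stabilises the inhibitor of plasminogen activators and also binds terminal complement complexes. It ranged over 472, 555 and 734 CPM in shChREBP/L-G6pc-/- and 635, 699 and 831 CPM in shSCR/L-G6pc-/- livers, and 8 of 9 shChREBP/L-G6pc-/- libraries were below every shSCR/L-G6pc-/- library, with s31 above. The log2 fold change was -0.33 ± 0.09 (SE, adjusted p = 0.0137 by edgeR). Without the 4 libraries it was -0.27 (adjusted p = 0.226 by edgeR). In L-G6pc+/+ livers Vtn ranged over 621, 748 and 806 CPM with shChREBP and 628, 674 and 794 CPM with shSCR.

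Among the chains of C8, a component of the membrane pore, C8g (chr2:25498651-25501719, minus strand) fell and C8b (chr4:104766317-104804548, plus strand) rose. C8g had 253, 306 and 367 CPM (lowest, median and highest) in shChREBP/L-G6pc-/- and 378, 414 and 558 CPM in shSCR/L-G6pc-/- livers, so that the ranges did not overlap. Its log2 fold change was -0.50 ± 0.10 (SE, adjusted p = 0.000911 by edgeR). C8b had 482, 582 and 794 CPM in shChREBP/L-G6pc-/-, against 248, 358 and 550 CPM in shSCR/L-G6pc-/- livers, and all 9 libraries were above the shSCR/L-G6pc-/- median. Its log2 fold change was 0.75 ± 0.16 (SE, adjusted p = 0.00358 by edgeR). C8a, the alpha chain, had one of -0.16 that did not pass.

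Without s29, s30, s32 and s33 the change of C8g was -0.38 (adjusted p = 0.101 by edgeR) and that of C8b 0.66 (adjusted p = 0.0883 by edgeR). C8g lies across Fbxw5 on the other strand, and the sources used here do not say if counting took account of strand. In L-G6pc+/+ livers C8g ranged over 316, 365 and 431 CPM with shChREBP and 322, 410 and 515 CPM with shSCR. There C8b ranged over 358, 637 and 1107 CPM with shChREBP and 342, 459 and 691 CPM with shSCR. The other terminal genes were Hc, which encodes C5 (-0.26), C6 (0.45) and C9 (-0.31), and none of them passed.

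C3, the protein on which all complement routes converge, fell by 0.44 (adjusted p = 0.00688 by edgeR). It ranged over 3831, 4181 and 4798 CPM in shChREBP/L-G6pc-/- and 4366, 5918 and 7243.5 CPM in shSCR/L-G6pc-/- livers, and its change without the 4 libraries was -0.45 (adjusted p = 0.0868 by edgeR). All 9 shChREBP/L-G6pc-/- libraries were below the shSCR/L-G6pc-/- median. Cfb, factor B of the alternative pathway, was read only 7 to 33 times per library and did not pass (-0.16). Mbl1, a mannose-binding lectin, fell by 0.34 (adjusted p = 0.0278 by edgeR) and the related Mbl2 did not pass (0.02). Mbl1 was at -0.25 without the 4 libraries (adjusted p = 0.4 by edgeR). C4b (-0.31), C2 (-0.13), C1ra (0.05) and Masp2 (0.04) did not pass. C4b and C1ra have near-identical copies, and reads may be split between the copies.

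Among the inhibitors, Cfi, the protease that inactivates C3b and C4b, fell by 0.50 (adjusted p = 0.00474 by edgeR). Its lowest, median and highest levels were 228, 329.6 and 406 CPM in shChREBP/L-G6pc-/- and 371, 403 and 585 CPM in shSCR/L-G6pc-/- livers. The 4 libraries that stood apart had the lowest values, 228 to 258 CPM, and without them its change was -0.26 (adjusted p = 0.318 by edgeR). Serping1, the C1 inhibitor, fell by 0.31 (adjusted p = 0.0456 by edgeR). Its value without the 4 libraries was -0.22 (adjusted p = 0.47 by edgeR). C4bp, the cofactor of Cfi on C4b, did not pass (-0.22).

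Leaving out s29, s30, s32 and s33 moved this count of calls more than any other alternative run. Of 39 members, 1 then passed, the median log2 fold change was -0.12, and 1.02% of all 10399 genes then tested were called. Within shChREBP/L-G6pc-/- livers, 30 of 39 members had a lower mean in these 4 libraries than in the other 5. The plot with and without these libraries shows 9 of the 11 genes that had fallen nearer to 0 without them, all but C3 and Cpb2.

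**Figure D4:**
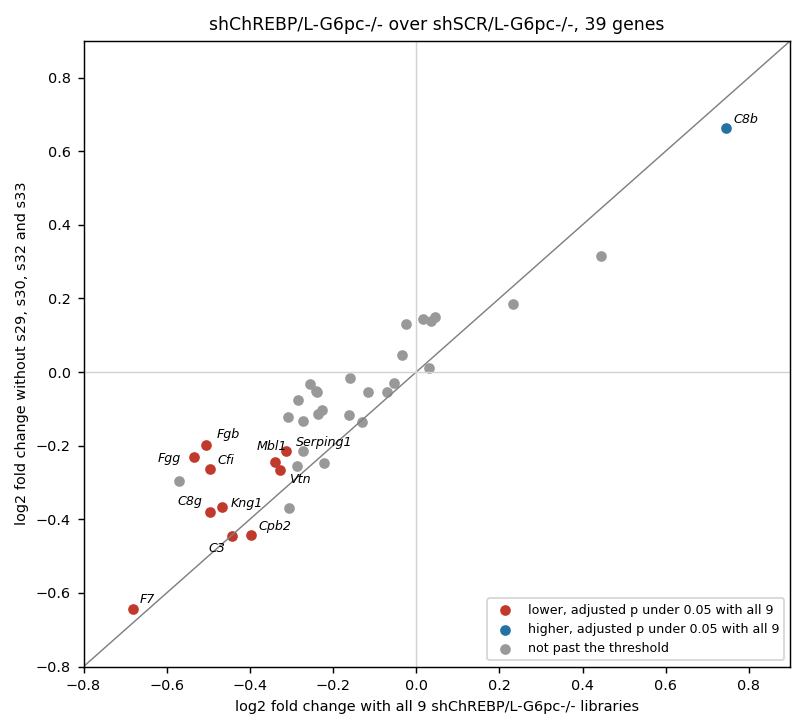
Log2 fold change of 39 members, shChREBP/L-G6pc-/- over shSCR/L-G6pc-/-, with all 9 libraries (horizontal axis) and without s29, s30, s32 and s33 (vertical axis). The grey diagonal marks equal values: F7 lies near it, at -0.68 and -0.64, and Fgb lies at -0.51 and -0.20.

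Cell type markers moved alongside. The summed level of the 9 hepatocyte markers ran from 13773 to 24410 CPM in shChREBP/L-G6pc-/- and from 21368 to 27793 CPM in shSCR/L-G6pc-/- livers, and 3 of them fell (Alb, Ttr and Apoa2) and 0 rose. Inside shChREBP/L-G6pc-/- it was 13773 to 19063 CPM in the 4 libraries that stood apart and 18909 to 24410 CPM in the other 5. The 12 Kupffer cell and macrophage markers summed to 1638 to 2522 CPM in shChREBP/L-G6pc-/- and 1031 to 2465 CPM in shSCR/L-G6pc-/- livers, with 3 higher (C1qa, C1qc and Clec4f). For 10 stellate cell markers the sums were 369 to 529 CPM and 288 to 520.3 CPM in these groups, with 0 called (no stellate marker was lower). For 10 sinusoidal endothelial markers they were 365 to 448 CPM and 304 to 413 CPM, with Pecam1 higher. Cholangiocyte markers summed to 32.4 to 65.9 CPM and 22.8 to 57.5 CPM, with 2 of 8 passing the filter, and platelet markers to 8.39 to 26.5 CPM and 4.67 to 24.8 CPM, with 2 of 6 passing and Gp1bb at 0 in shSCR/L-G6pc-/-. The part of these cells in the results was not tested.

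Other genes of the cascades gave a mixed picture in the same comparison, with all 9 shChREBP/L-G6pc-/- libraries in the fit. Of 26 further coagulation and fibrinolysis genes, 17 were tested, 1 rose and 2 fell. Anxa2, which encodes a cell surface receptor for plasminogen, rose by 0.89 (adjusted p = 0.0345 by edgeR), and its levels were 88.1, 113 and 471 CPM in shChREBP/L-G6pc-/- and 55.3, 92.0 and 165 CPM in shSCR/L-G6pc-/- livers. Fgl1, a fibrinogen-like protein secreted by hepatocytes, fell by 0.82 (adjusted p = 0.00548 by edgeR), and Lman1, which carries factors V and VIII out of the endoplasmic reticulum, fell by 0.33. Of 29 further complement genes, 21 were tested, and 3 rose. C1qa, C1qc and the ficolin Fcna, which are textbook products of macrophages in mouse liver, rose by 0.58, 0.49 and 0.47 (adjusted p = 0.00645, 0.0288 and 0.0261 by edgeR). C1qa and C1qc are also in the list of Kupffer cell and macrophage markers above, so these are the same observations. Of 18 liver transcription factors, Mlxipl, which is the target of the hairpin, and Cebpa (-0.45, adjusted p = 0.0319 by edgeR) fell and 0 rose. Lman1 and the transcription factors other than Mlxipl were named after their values were seen.

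In livers with G6pc, the share of members called under shChREBP (5.13%) was near that of all tested genes. Of 39 members, 1 rose and 1 fell in shChREBP/L-G6pc+/+ compared with shSCR/L-G6pc+/+ livers, against 5.39% of all tested genes called, and the median log2 fold change was -0.02 (all genes 0.03). The pore component C6 rose and prothrombin fell. F2 (chr2:91625320-91636414, minus strand), which encodes prothrombin, had 2554, 2788 and 3048 CPM (lowest, median and highest) in shChREBP/L-G6pc+/+ and 3228.5, 3459.6 and 3989.5 CPM in shSCR/L-G6pc+/+ livers. The ranges did not overlap, and the log2 fold change was -0.35 ± 0.10 (SE, adjusted p = 0.0431 by edgeR). In L-G6pc-/- livers F2 ranged over 2037, 3124 and 3769 CPM with shChREBP and 2795, 3648 and 4235 CPM with shSCR.

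C6 (chr15:4727175-4814967, plus strand) ranged over 55.6, 79.0 and 161 CPM in shChREBP/L-G6pc+/+ and 37.4, 47.6 and 84.5 CPM in shSCR/L-G6pc+/+ livers. All 8 shChREBP/L-G6pc+/+ libraries were above the shSCR/L-G6pc+/+ median, 2 of them above its highest library, and s9 was the highest. The log2 fold change was 0.65 ± 0.19 (SE, adjusted p = 0.0355 by edgeR). In L-G6pc-/- livers it ranged over 42.3, 59.5 and 88.1 CPM with shChREBP and 35.6, 43.6 and 64.4 CPM with shSCR. C6 no longer passed without any 1 of s2, s3, s4, s5, s6, s9, s11 or s16 (adjusted p between 0.0501 and 0.105 by edgeR). F2 no longer passed without any 1 of s2 to s9 or s11 to s16 (0.0506 to 0.0894). On the first principal component s9 and s13 lay at 19.8 and 21.15, towards the libraries of shChREBP/L-G6pc-/- that stood apart, and s11 at 15.7. Without s9 and s13 together, and with s11 kept, C6 had a log2 fold change of 0.43 and F2 one of -0.33. Neither passed, and C2 was the 1 member that did (0.47, adjusted p = 0.0326 by edgeR). Of all genes then tested 4.01% were called.

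Several members lay near the threshold in L-G6pc+/+ livers. Hc had a log2 fold change of -0.43 (adjusted p = 0.055 by edgeR), Proc one of -0.36 (0.0659) and F10 one of -0.29 (0.0817). All 3 passed, each lower, when the libraries s29, s30, s32 and s33 of another group were left out of the fit, which then called 5 members. Of all 10399 genes then tested 7.1% were called. From the list of further complement genes, C1rl, a relative of the C1 proteases, fell by 0.55 (adjusted p = 0.0479 by edgeR), the 1 call among 21 tested, and of the 17 further coagulation genes tested 0 passed by edgeR. Among the cell type markers, 1 of 10 sinusoidal endothelial markers rose and 0 of the others passed by edgeR.

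The shChREBP effect was then compared between the genotypes. By edgeR, 0 of 39 members passed for the difference, against 0.0786% of all tested genes. At an unadjusted p under 0.05 there were 10 members, all 10 with the more negative change in L-G6pc-/- livers, and 12% of all genes tested. The median difference over the members was -0.21 on the log2 scale (all genes -0.01). DESeq2 called F7 (-0.65, adjusted p = 0.0312) and C4bp (-0.44, adjusted p = 0.0353). The share of all genes that DESeq2 called for this difference was not counted. For F7 the log2 fold change under shChREBP was -0.68 in L-G6pc-/- and -0.03 in L-G6pc+/+ livers. For Cfi it was -0.50 in L-G6pc-/- and 0.04 in L-G6pc+/+ livers, and for C4bp -0.22 and 0.22. By edgeR the differences were -0.65 ± 0.16 for F7 (adjusted p = 0.113), -0.54 for Cfi (adjusted p = 0.169) and -0.45 for C4bp (adjusted p = 0.13).

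With the scrambled hairpin, loss of G6pc changed 1 member by the test. Of 39 members, 1 rose and 0 fell in shSCR/L-G6pc-/- compared with shSCR/L-G6pc+/+ livers (3.23% of all tested genes called), and the median log2 fold change was 0.00 (all genes 0.00). C4bp (chr1:130634773-130661632, minus strand), the fluid-phase inhibitor that binds C4b, was the gene that rose. Its lowest, median and highest levels were 310, 334 and 404 CPM in shSCR/L-G6pc-/- and 203, 242 and 294 CPM in shSCR/L-G6pc+/+ livers, without overlap. The log2 fold change was 0.49 ± 0.09 (SE, adjusted p = 0.000463 by edgeR), and the call held in each fit that left out 1 library and under the 11 other settings. With shChREBP, C4bp ranged over 256, 279 and 371 CPM in L-G6pc-/- and 250.3, 279 and 322 CPM in L-G6pc+/+ livers. Among the hepatocyte markers Alb was lower in the same comparison (-0.79, adjusted p = 3.68e-05 by edgeR) and the 8 others did not pass, and of 18 transcription factors Foxa3 was lower (-0.66). As the Cre stands under the albumin promoter and only L-G6pc-/- mice carry it, Cre and loss of G6pc cannot be told apart for Alb. Of the 17 further coagulation and 21 further complement genes tested, 0 passed by edgeR.

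Under shChREBP, 7 of 22 coagulation members were lower in livers that lacked G6pc than in those that had it. Of 17 complement members, 2 were lower and 1 was higher. Compared with shChREBP/L-G6pc+/+ livers, 9 of 39 members fell and 1 rose in shChREBP/L-G6pc-/- livers, against 11% of all tested genes called, 4.90% lower and 6.14% higher, with a median log2 fold change of -0.18 (all genes -0.01). By library size only, the 625 higher and 499 lower genes of the whole table became 904 and 318. F11 (-0.83), Klkb1 (-0.63), F7 (-0.56), C8a (-0.53), Fga (-0.45), Serpinf2 (-0.43), Mbl1 (-0.38), Vtn (-0.37) and Serpind1 (-0.37) fell. Mbl2 rose by 0.51 (adjusted p = 0.0211 by edgeR). Its lowest, median and highest levels were 895.5, 1319 and 1634 CPM in shChREBP/L-G6pc-/- and 657, 850.4 and 1194 CPM in shChREBP/L-G6pc+/+ livers, all 9 above the shChREBP/L-G6pc+/+ median.

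The span counted here as Klkb1 (chr8:45269671-45308466, minus strand) is that of Gm45753 in GENCODE M21. It overlaps Cyp4v3, a counted gene on the same strand. Klkb1 encodes plasma prekallikrein, which activates factor XII and releases bradykinin. It ranged over 42.3, 62.2 and 78.7 CPM in shChREBP/L-G6pc-/- and 70.4, 88.8 and 128 CPM in shChREBP/L-G6pc+/+ livers, and 7 of 9 libraries were below every shChREBP/L-G6pc+/+ library. The log2 fold change was -0.63 ± 0.14 (SE, adjusted p = 0.00308 by edgeR), and -0.50 without s29, s30, s32 and s33 (adjusted p = 0.0441 by edgeR). In the shSCR groups it ranged over 51.0, 68.7 and 90.2 CPM in L-G6pc-/- and 58.4, 88.1 and 117 CPM in L-G6pc+/+ livers. F7 and Vtn, whose levels are given above, differed by -0.56 (adjusted p = 0.00143) and -0.37 (adjusted p = 0.0041, both by edgeR), each with 8 of 9 libraries below every shChREBP/L-G6pc+/+ library.

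Without s29, s30, s32 and s33, 5 members passed between the genotypes under shChREBP: F7, Klkb1 and Vtn lower, and Mbl2 (0.64) and Hc (0.51, adjusted p = 0.0121 by edgeR) higher. Of all 10399 genes then tested 8.78% were called, 3.48% of them lower in the share of all genes. Fga lost its call without any 1 of s12, s14, s15, s16, s27, s28, s29, s30 or s32 (adjusted p between 0.0519 and 0.0955 by edgeR). C8a lost it without s9, s11, s15, s16, s25, s26, s29, s30 or s32 (0.0517 to 0.0966), and Mbl2 without s16 (0.0557). In all 1 of 17 further coagulation genes rose and 2 fell, 1 of 21 further complement genes rose, and 1 of 18 transcription factors rose and 6 fell. The hepatocyte markers summed to 13773 to 24410 CPM in shChREBP/L-G6pc-/- and 23651 to 37260 CPM in shChREBP/L-G6pc+/+ livers, with 2 of 9 lower. Within these sums Alb averaged 5789.5 and 12167 CPM. Only L-G6pc-/- mice carry the Cre under the albumin promoter, so for Alb the Cre and loss of G6pc cannot be told apart. Of 10 stellate markers 1 rose, and of 12 Kupffer cell and macrophage, 10 endothelial, 2 cholangiocyte and 2 platelet markers 0 passed by edgeR. The part of these cells was not tested.

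Set against shSCR/L-G6pc+/+ livers, which shares its shChREBP/L-G6pc-/- libraries with the comparisons above, 11 of 39 members fell and 2 rose in shChREBP/L-G6pc-/- livers. Of all tested genes 13.2% were called, 6.37% lower and 6.87% higher, and the median log2 fold change of the members was -0.17 (all genes 0.01). By library size only, the 699 higher and 648 lower genes of the whole table became 965 and 450. F11 (-0.62), F7 (-0.59), Fgg (-0.52), Klkb1 (-0.52), C3 (-0.50), C8g (-0.49), Plg (-0.45), Fga (-0.45), Mbl1 (-0.37), Vtn (-0.33) and Serpind1 (-0.27) fell, and Mbl2 (0.44) and C4bp (0.27) rose. C3 had 3831, 4181 and 4798 CPM (lowest, median and highest) in shChREBP/L-G6pc-/- and 5175, 5685 and 7860.1 CPM in shSCR/L-G6pc+/+ livers, and these ranges did not overlap. Among the further genes, Cd93, a receptor on endothelial and myeloid cells, rose by 0.77 and Anxa2 by 1.38, and 1 of 17 coagulation genes rose and 1 fell, while 3 of 21 complement genes rose and 0 fell. Of the 9 hepatocyte markers 6 fell and 0 rose, and their sum was 13773 to 24410 CPM in shChREBP/L-G6pc-/- and 30155 to 34008 CPM in shSCR/L-G6pc+/+ livers. Alb averaged 5789.5 and 14353 CPM in these groups, with the same limit from the Cre. Of the 12 Kupffer cell and macrophage markers 3 rose and 0 fell, with a log2 fold change above 0 for all 12 (median 0.36), and their sum was 1638 to 2522 CPM in shChREBP/L-G6pc-/- and 1122 to 1923 CPM in shSCR/L-G6pc+/+ livers. Of 2 cholangiocyte markers tested 1 rose, of 10 stellate, 10 sinusoidal endothelial and 2 platelet markers 0 passed by edgeR, and of 18 transcription factors 5 fell and 0 rose. Mlxipl, the target of the hairpin, was among those that fell. The part of these cells was not tested. Without s29, s30, s32 and s33 only F7 (-0.55) and C3 (-0.50) passed, and 3.09% of all 10399 genes then tested were called.

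Calls for 6 genes in that comparison depended on single libraries (adjusted p by edgeR). C4bp lost its call without s2, s3, s6, s7, s31, s32 or s33 (0.0549 to 0.0952), and F11 without s2, s3, s4, s8, s29, s30 or s32 (0.0556 to 0.0877). Fga lost it without s1, s8, s29, s30 or s32 (0.06 to 0.106), and Fgg without s1, s4, s29, s30 or s32 (0.0635 to 0.0703). Mbl2 lost it without s1 to s6 or s25 to s29, each alone (0.055 to 0.0824), and Serpind1 without s4, s8, s27, s29 or s30 (0.0612 to 0.0924).

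The median coefficient of variation over the 39 members was 17.7% in shChREBP/L-G6pc-/-, 15.6% in shSCR/L-G6pc-/-, 16.2% in shChREBP/L-G6pc+/+ and 13.8% in shSCR/L-G6pc+/+ livers. Antithrombin (Serpinc1) was the steadiest in both shSCR groups, with 6.80% in L-G6pc-/- and 2.46% in L-G6pc+/+ livers, and it was called in none of the 6 comparisons above, its adjusted p lying over 0.05 in each. Cfb varied most in these groups, with 38.1% in L-G6pc-/- and 39.9% in L-G6pc+/+ livers. It had only 7 to 30 and 10 to 33 reads per library there. Few reads widen this measure by themselves, and their part was not tested.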

How the data were processed

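Liver RNA of 33 libraries was sequenced as single 50-base reads of 3′ QuantSeq libraries, and per the study's methods and the submitters' processing notes the authors aligned them with HISAT to GRCm38, sorted them with SAMtools and counted reads per gene with HTSeq (versions not given in the sources used here). The authors deposited these raw counts. They also deposited a signal table normalized with voom of limma, whose linear values are (count + 0.5) over one number per library, used here only as an alternative and for gene names.

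Counts were fitted with edgeR 4.0.16 (quasi-likelihood F test, TMM, all 4 groups together) in R 4.3.3 after filterByExpr (minimum count 10, minimum total 15), and p-values were adjusted by Benjamini-Hochberg over 10179 genes. The standard error is the log2 fold change over the root of F. Alternatives used DESeq2 1.42.0, limma 3.58.1, other scalings and filters, and libraries left out. The script was tested on simulated data. The 40 genes and all lists (further coagulation and complement genes, cell type markers, transcription factors) were chosen with earlier results of these data known. Values of every group were given for the 3 called members with the smallest p in each of the 4 comparisons of groups that differ in 1 factor, and up to 4 further coagulation or complement genes were named by smallest p for shChREBP in L-G6pc-/- livers and up to 2 for each other comparison. Reads could not be assigned with certainty for gene pairs that overlap or share sequence: 9 members overlap a counted gene on the other strand and 6 on the same strand. C2 and Cfb also overlap Gm20547, which was not counted. Results for some genes of the further complement list and the marker lists are not reported here.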

Additional observations from a re-analysis of the deposited data

Results flagged for a closer look

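In 9 of 156 groups of libraries examined (39 genes in 4 groups), the highest or lowest library stood apart from the others by Dixon's criterion, and chance flags about 1 in 20 groups. The highest library of shChREBP/L-G6pc-/- was s31 for Mbl1 (180.8 CPM, next 133 CPM). In shSCR/L-G6pc-/- the highest libraries were s17 for Mbl2 (2290 CPM, next 1432 CPM), s20 for C6 (64.4 CPM, next 47.96 CPM) and s21 for C8g (558.1 CPM, next 455.8 CPM). In shChREBP/L-G6pc+/+ the library s9 was highest for C6 (161 CPM, next 101 CPM) and for C8b (1107 CPM, next 701.5 CPM). In shSCR/L-G6pc+/+ the library s8 was highest for F13b (315.8 CPM, next 240.3 CPM) and Serpind1 (454.4 CPM, next 390.9 CPM), and s3 was lowest for Serpinc1 (2148 CPM, next 2245 CPM).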

How the results depend on the processing

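No paired analysis was possible because each library number occurs in 1 group only. No log2 fold change of a called member changed sign under any alternative, the 11 settings and the 33 fits without 1 library. Counts of members called that moved by over 1.5 times were these, and the cause was not tested. For shChREBP in L-G6pc-/- livers the 12 calls became 1 without s29, s30, s32 and s33 and 7 by library size only, a scaling that set the median of all genes at 0.11 in place of 0.01. For shChREBP in L-G6pc+/+ livers the 2 calls became 6 with DESeq2, 5 without those 4 libraries, 4 with only the groups compared, 1 by library size only, without a filter on low counts, or without s9 and s13 (0 shared), and 0 with limma on the deposited values. Without s29, s30, s32 and s33, the 13 calls of shChREBP/L-G6pc-/- over shSCR/L-G6pc+/+ became 2, and the 10 over shChREBP/L-G6pc+/+ became 5. Of all genes then tested, 3.09% and 8.78% were called in these comparisons, and 7.1% for shChREBP in L-G6pc+/+ livers. DESeq2 called 2 members for the difference between genotypes in place of 0. The shares of all genes that DESeq2 called were not counted. When 1 library was left out, the counts ran from 8 to 15 for shChREBP in L-G6pc-/- livers, 0 to 5 for it in L-G6pc+/+ livers, 8 to 15 for shChREBP/L-G6pc-/- over shSCR/L-G6pc+/+, 7 to 11 over shChREBP/L-G6pc+/+, 0 to 0 for the difference between genotypes and 1 to 2 for loss of G6pc with shSCR. At 1497843 to 3546852 reads per library, F11, Cfb and Masp1 rest on few reads (2 to 60 per library).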
